A study of Rattus norvegicus with 24 samples.

Results

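The effect of monocrotaline (MCT) on lung RNA was compared between week 2 and week 3 after injection in rats. For each gene the difference between MCT and PBS lungs at week 3 was set against the difference between MCT and PBS lungs at week 2, and this change of the MCT effect, an interaction of treatment and time, was tested in the 16 libraries of these weeks, of 24 in the series. Male Sprague-Dawley rats received 50 mg per kg MCT or PBS by intraperitoneal injection, and lungs were taken on day 21 or day 14, here called 3-week and 2-week lungs. There were 4 MCT lungs and 4 PBS lungs at 3 weeks, and 4 MCT lungs and 4 PBS lungs at 2 weeks, each from its own rat, so no animal was followed over time. Lungs had been perfused with PBS before RNA was taken, and poly-A RNA of the tissue was sequenced. Levels are given as CPM, a gene's counts scaled to the total of its library, and differences are on the log2 scale. In bulk tissue, fewer cells of a type and less RNA per cell cannot be told apart.

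MCT is a plant alkaloid that the liver turns into a reactive pyrrole, which injures the endothelium of the lung vessels and is followed in rats by pulmonary hypertension. Endothelial cells line the vessels and carry the receptors and enzymes that set vascular tone, and bone morphogenetic protein (BMP) signalling through BMPR2 keeps them quiescent. After injury, surviving cells divide, macrophages and other leukocytes enter the tissue, and matrix is laid down. Interferon-stimulated genes are the antiviral programme that interferons induce, and T and NK lymphocytes are the usual source of interferon gamma. An interaction can arise in either arm: a gene's MCT effect changes when its level differs between 3-week and 2-week MCT lungs, when it differs between 3-week and 2-week PBS lungs, or both. Both arms are given for the main gene lists.

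Of 16893 genes tested, 2834 changed in their MCT effect (16.8%), 1250 upward (7.4%) and 1584 downward (9.38%), by edgeR's quasi-likelihood test at an adjusted p under 0.05. "Upward" means that the effect was more positive at week 3, whether the gene was induced further or had been repressed at week 2. The change exceeded 1.5-fold in 1001 of the genes that went up and 1195 of those that went down, and its median size was 0.80 and 0.74 on the log2 scale. The MCT effect itself was called in 6582 genes at week 3 (39%; 3185 or 18.9% higher and 3397 or 20.1% lower in MCT lungs) and in 2165 genes at week 2 (12.8%; 1144 or 6.77% higher and 1021 or 6.04% lower). Leaving out 1 library lowered the count of genes that went up beyond 1.5 times for 5 libraries: to 647 and 797 without replicates 4 and 3 of the 3-week MCT lungs, 723 without replicate 4 of the 2-week MCT lungs, and 760 and 818 without replicates 3 and 2 of the 2-week PBS lungs. The count of genes that went down fell to 858 and 997 without replicates 4 and 2 of the 3-week MCT lungs, 1003 without replicate 4 of the 2-week MCT lungs and 981 without replicate 3 of the 2-week PBS lungs.

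**Figure D1:**
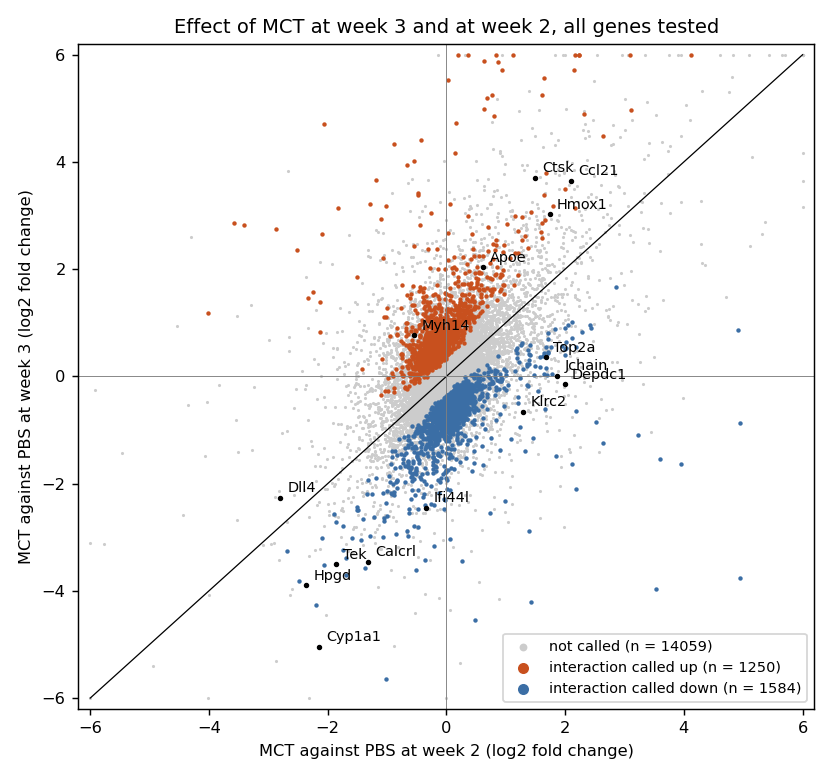
Log2 difference between MCT and PBS lungs at week 3 (vertical axis) against the same difference at week 2 (horizontal axis), 1 point per gene tested, with values clipped at 6 in either direction; the 1250 genes whose effect went up lie above the diagonal and the 1584 whose effect went down lie below it. Both axes use their own 4 MCT and 4 PBS lungs.

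Most of these genes had no called MCT effect at week 2 and had one at week 3. Of the genes that went up, 895 (71.6%) were higher in MCT lungs at week 3 and not called at week 2, and 117 (9.36%) were not called at week 3 and lower in MCT lungs at week 2. Of those that went down, 1200 (75.8%) were lower at week 3 and not called at week 2, and 141 (8.9%) were not called at week 3 and higher at week 2. An effect deepened in the direction it already had in 87 genes higher and 121 genes lower in MCT lungs at both weeks. In 62 genes both effects were called with opposite signs, 40 of them higher at week 3 and lower at week 2, and 22 the other way.

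The PBS lungs of the 2 weeks differed too. In PBS lungs 2592 genes (15.3%) differed between week 3 and week 2, 1372 higher (8.12%) and 1220 lower (7.22%) at week 3. In MCT lungs 797 genes (4.72%) did, 279 higher (1.65%) and 518 lower (3.07%). The order of these counts depends on the method, since limma-voom called more genes in MCT lungs (1209 higher and 1409 lower) than in PBS lungs (1070 higher and 880 lower). They also moved beyond 1.5 times without single libraries. In MCT lungs 53 to 522 genes were higher and 251 to 838 lower without replicate 3 or 4 of the 2-week or replicate 1, 2 or 4 of the 3-week MCT lungs, and 175 were higher without replicate 3 of the 3-week MCT lungs. In PBS lungs 438 to 649 were higher and 386 to 586 lower without replicate 2, 3 or 4 of the 2-week or replicate 3 of the 3-week PBS lungs. Among genes whose MCT effect went up, the PBS arm was called in the opposite direction in 679 and the MCT arm in the same direction in 203. Among genes whose effect went down these counts were 920 and 298, and in 51 of them both arms were called. The difference between PBS lungs was the larger of the 2 arms in 65.3% of the genes that went up and 68.3% of those that went down. These arms are parts of the interaction and share its libraries, so their calls describe it and add no separate evidence.

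Total counts of the 16 libraries lay between 28357609 and 31940636, so depth differed little between groups. Replicate 3 of the 3-week PBS lungs stood farthest from its group, with an SD of gene-wise deviations of 0.376 against 0.226 for the closest library. When the 8 week 1 libraries entered the fit and its estimate of the spread, 3 genes were called up and 9 down, and those called down include Tek, Calcrl, Ifi44l, Ackr3 and Trib2. Without PBS replicates 1 and 3 of week 1, whose deviations reached 1.169, the counts were 637 up and 790 down, and 633 and 786 of these are among the 1250 and 1584. Lung marker genes were present: Ager, a receptor of alveolar type 1 cells, had 853, 1396, 1173 and 1449 CPM in 3-week MCT lungs, against 1091, 1055, 992 and 1246 CPM in 3-week PBS lungs. Ager had 955, 1139, 1422 and 1361 CPM in 2-week MCT lungs, against 1727, 1962, 2129 and 1805 CPM in 2-week PBS lungs. The 2-week PBS lungs were above the other groups.

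Genes were named through the study's table of differentially expressed genes, which pairs 3275 of the tested identifiers with a symbol. Genes absent from it are missing from every gene list here, so counts of list members are partly set by that choice. Genes higher in MCT lungs at week 3 are named less often there, because that table is shortened for them, and the study chose its genes on these same rats, so their direction is not independent evidence. Of the named genes 291 went up (8.89%) and 854 went down (26.1%), with a median change of -0.27, against 0.02 over all genes tested. These shares are the background for each list.

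**Figure D2:**
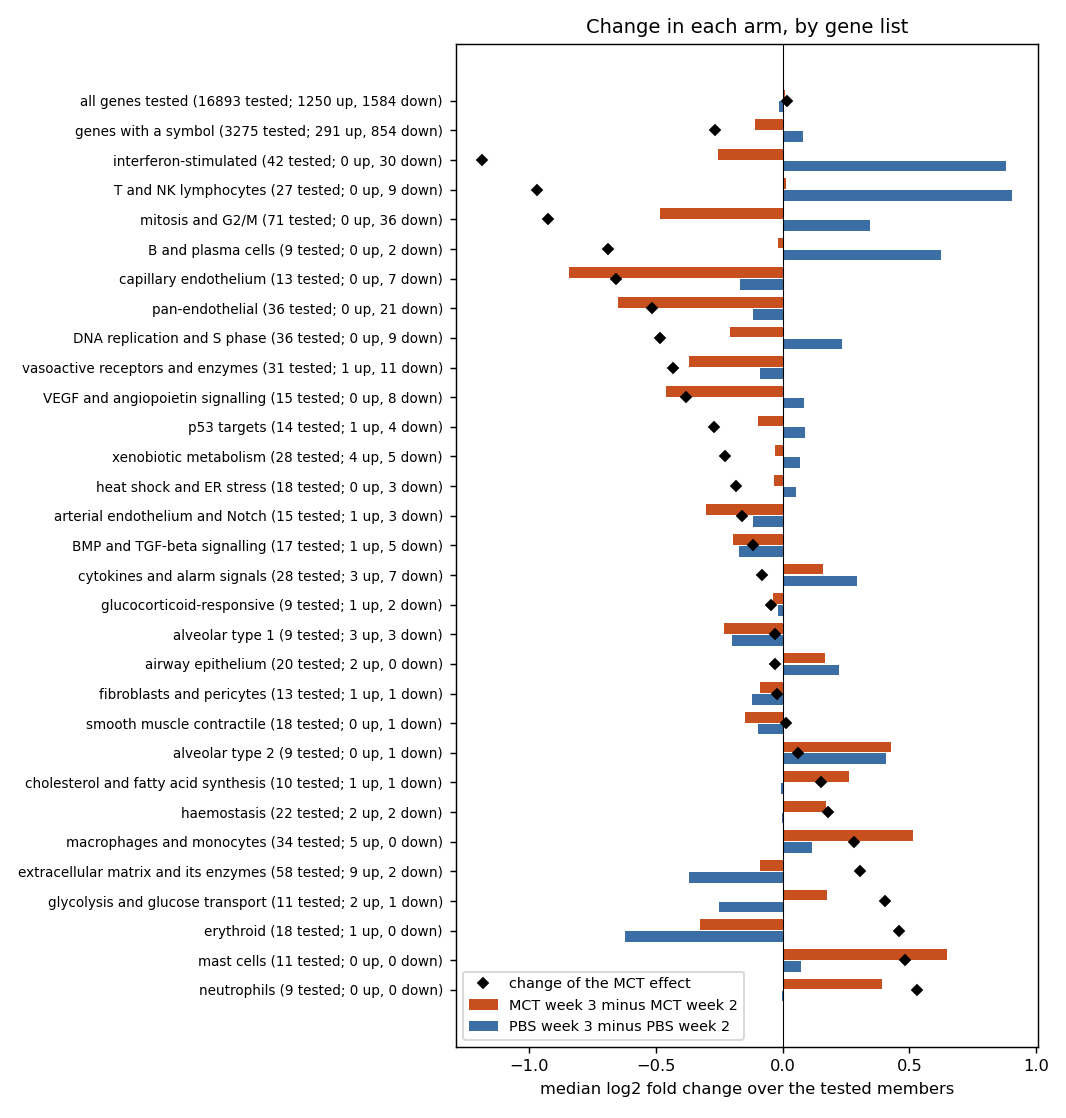
Median log2 fold change over the tested members of each gene list: diamonds give the change of the MCT effect, orange bars the difference between 3-week and 2-week MCT lungs, and blue bars that between 3-week and 2-week PBS lungs; labels give the members tested and called. The interferon-stimulated list has its diamond at -1.18 with a PBS bar of 0.88, while the pan-endothelial list, at -0.52, has an MCT bar of -0.65.

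The induction of mitotic genes by MCT was smaller at week 3 than at week 2. Of 71 tested members of the mitosis and G2/M list, 36 went down (50.7%) and the median change was -0.92. At week 3, 34 of the 71 were higher in MCT than in PBS lungs, and at week 2, 67 were. The median MCT effect was 0.53 at week 3 and 1.37 at week 2. Both arms differed, with a median of -0.48 in MCT lungs, where 14 genes were lower at week 3, and of 0.34 in PBS lungs, where 20 were higher. The PBS lungs of week 3 were uneven. Their summed level of the list was 1370, 885, 774.5 and 1009 CPM, against 787 to 845 CPM in 2-week PBS lungs. Replicate 1 was the highest of them, and replicate 3 lay below every 2-week PBS lung. Leaving out 1 library gave 24 to 43 called members. Of the 36 genes, 23 were not called at week 3 and higher in MCT lungs at week 2, and 11 were higher at both weeks, among them Ccnb1, Pbk, Cenpe and Anln.

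Depdc1, a gene expressed in dividing cells, had 9.36, 6.37, 4.4 and 5.21 CPM in 3-week MCT lungs, against 13.2, 6, 4.8 and 3.96 CPM in 3-week PBS lungs. Depdc1 had 11.7, 10.6, 13.5 and 13.2 CPM in 2-week MCT lungs, against 3.02, 3.16, 2.58 and 3.55 CPM in 2-week PBS lungs. At 2 weeks all MCT lungs were above all PBS lungs, and at 3 weeks the groups overlapped. The MCT effect was -0.14 at week 3 and 1.99 at week 2, a change of -2.13 ± 0.45 on the log2 scale (SE, adjusted p = 0.0083). Ccnb1 encodes cyclin B1, which drives entry into mitosis, and had 14.9, 12.8, 15.7 and 12 CPM in 3-week MCT lungs, against 15, 7.66, 6.76 and 8.92 CPM in 3-week PBS lungs. Ccnb1 had 22.7, 18.7, 23.4 and 23.6 CPM in 2-week MCT lungs, against 6.17, 5.79, 4.96 and 4.9 CPM in 2-week PBS lungs. MCT lungs were lower at 3 weeks than at 2 weeks in every library, PBS lungs were higher at 3 weeks than at 2 weeks in every library, and the effect changed by -1.49 ± 0.29 (SE, adjusted p = 0.006). Top2a, the topoisomerase that untangles replicated DNA, had 69, 59, 62.4 and 57.9 CPM in 3-week MCT lungs, against 68.6, 37.5, 35.9 and 51.2 CPM in 3-week PBS lungs. Top2a had 114, 98.2, 101 and 107 CPM in 2-week MCT lungs, against 30.7, 31.2, 34.7 and 34.5 CPM in 2-week PBS lungs. The groups lay in the same order, and the change was -1.32 ± 0.22 (SE, adjusted p = 0.004).

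Mki67, the Ki-67 antigen of cycling cells, changed by -1.14 ± 0.28 (SE, adjusted p = 0.015) and Ccna2, cyclin A2 of S and G2 phase, by -1.26 ± 0.27 (SE, adjusted p = 0.009). Their 3-week MCT lungs lay below the 2-week MCT lungs without overlap, while their PBS groups overlapped. Spc25, a part of the NDC80 complex that ties kinetochores to microtubules, had 5.83, 6.03, 6.28 and 4.58 CPM in 3-week MCT lungs, against 8.13, 7.1, 7.27 and 7.34 CPM in 3-week PBS lungs. Spc25 had 8.6, 7.87, 14.1 and 8.9 CPM in 2-week MCT lungs, against 5.57, 3.52, 3.35 and 4.7 CPM in 2-week PBS lungs. Its MCT lungs lay above PBS lungs at week 2 and below them at week 3 with no overlap, and the effect changed by -1.60 ± 0.30 (SE, adjusted p = 0.0057). Its week 3 effect of -0.39 did not pass the test (adjusted p = 0.16). Cdk1, the kinase partner of cyclin B1, had 20.2, 22.9, 23.2 and 23.7 CPM in 3-week MCT lungs, against 15.8, 10.7, 6.4 and 9.69 CPM in 3-week PBS lungs. Cdk1 had 32.2, 30.8, 37 and 34.3 CPM in 2-week MCT lungs, against 8.49, 11.8, 10.4 and 12.9 CPM in 2-week PBS lungs. Its MCT lungs stayed above the PBS lungs at both weeks, and its change of -0.54 ± 0.28 (SE, adjusted p = 0.19) was not called. It was called when replicate 3 of the 3-week PBS lungs was left out (adjusted p = 0.0461).

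**Figure D3:**
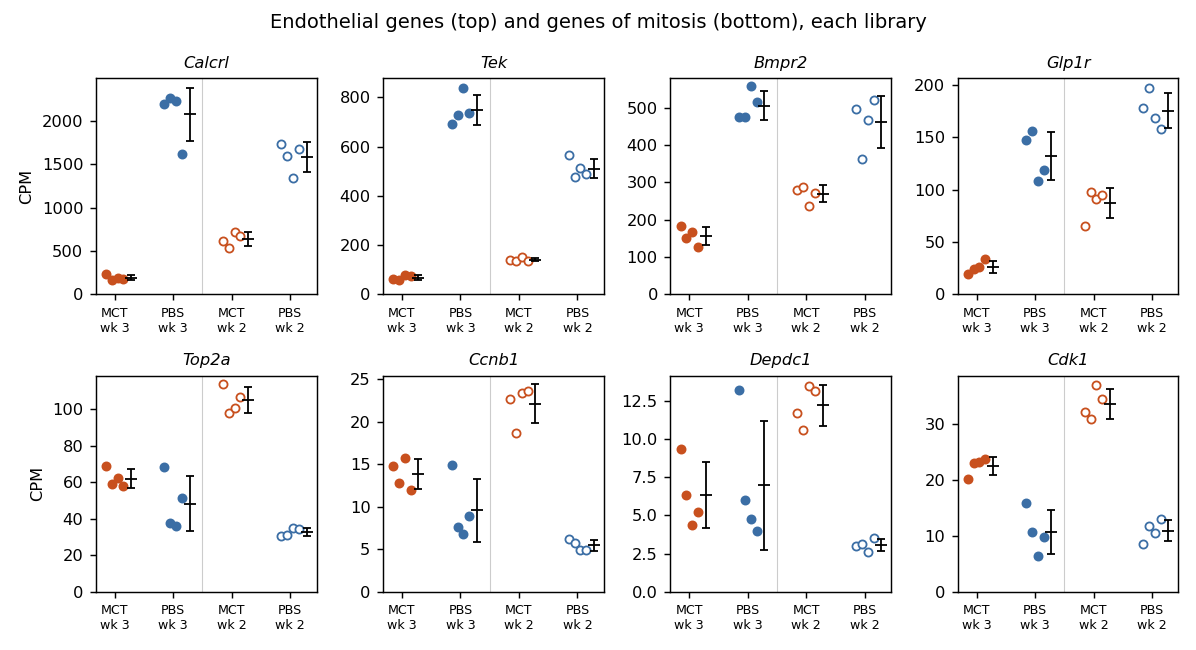
Level in CPM in each lung for Calcrl, Tek and Glp1r of the endothelial lists, Bmpr2 of the BMP list in the same row, and 4 genes of mitosis (Top2a, Ccnb1, Depdc1, Cdk1). MCT is in orange and PBS in blue, week 3 filled and week 2 open, with mean and SD of 4 lungs beside the points. For Calcrl and Tek the 3-week MCT lungs are the lowest group; for Top2a and Ccnb1 the 2-week MCT lungs are the highest.

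Of 36 genes of DNA replication and S phase, 9 went down (25%), near the 26.1% of all genes with a symbol. The median was -0.48, with -0.21 in the MCT arm and 0.23 in the PBS arm. The count of 9 fell to 5 without replicate 2 or 3 of the 2-week PBS lungs or replicate 4 of the 2-week MCT lungs. It fell to 2 without replicate 4 of the 3-week MCT lungs. Ccne2, cyclin E2 of the G1/S transition, had 18.6, 14.4, 13.8 and 12.4 CPM in 3-week MCT lungs, against 19, 31.7, 38.1 and 20.2 CPM in 3-week PBS lungs. Ccne2 had 17.9, 19.7, 22.9 and 22 CPM in 2-week MCT lungs, against 15.9, 15, 15.6 and 13.4 CPM in 2-week PBS lungs. MCT lungs were below PBS lungs at week 3 and above them at week 2 without overlap, and the change was -1.34 ± 0.27 (SE, adjusted p = 0.0073). Rrm2, a subunit of the ribonucleotide reductase that supplies nucleotides, gave -1.16 ± 0.51 (SE, adjusted p = 0.13), which passed the test without replicate 3 of the 3-week PBS lungs (adjusted p = 0.0334). The replication factor Mcm10 gave -0.49 ± 0.43 (SE, adjusted p = 0.46). Fas, a death receptor and p53 target, was lower in MCT than in PBS lungs at week 3 and higher at week 2. It had 19.99, 16, 19.5 and 14.3 CPM in 3-week MCT lungs, against 21.9, 24.2, 23.1 and 21 CPM in 3-week PBS lungs. Fas had 24.1, 26.6, 23.9 and 23.9 CPM in 2-week MCT lungs, against 15.7, 17.4, 12.8 and 19.3 CPM in 2-week PBS lungs. There was no overlap at either week, and the change was -0.97 ± 0.19 (SE, adjusted p = 0.0066). Cdkn1a, the cell cycle inhibitor p21, gave 0.52 ± 0.25 (SE, adjusted p = 0.15).

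Promoters of the mitotic genes share letters that the test did not use. Of 64 mitosis promoters found in RefSeq (GRCr8, 250 bases before to 50 after the gene start), 45 (70.3%) hold TTTGAA on either strand, the letters of the cell cycle genes homology region, and 40 (62.5%) hold CCAAT on either strand. Of all 27457 promoters 18.1% hold TTTGAA and 37.7% hold CCAAT. Among the promoters of genes that went down the shares were 66.7% and 57.6% of 33, close to those of the whole list. Of 30 promoters of the replication list, 13 (43.3%) hold TTTCGCGC or TTTGGCGC, letters of E2F sites, on either strand, against 0.841% of all promoters. Among promoters of the replication genes that went down, 1 of 7 (14.3%) holds these E2F letters. A match is a description of the letters and not of binding. The 4 promoters printed are those of the mitotic genes with the most negative change that hold both motifs, so that their spacing can be compared. Depdc1 lies at chr2:251343031-251343330 (+ strand), Spc25 at chr3:74396669-74396968 (- strand), Ncapg at chr14:69645396-69645695 (- strand) and Ckap2l at chr3:136977454-136977753 (- strand). Ncapg, a condensin subunit, changed by -1.45 ± 0.26 (SE, adjusted p = 0.0051). Ckap2l, a protein of the mitotic spindle, changed by -1.38 ± 0.41 (SE, adjusted p = 0.031), a call lost without replicate 1 or 2 of the 2-week PBS lungs, 1 or 4 of the 2-week MCT lungs, 1 of the 3-week PBS lungs or 2 of the 3-week MCT lungs (adjusted p up to 0.065), and in the 22 libraries that include week 1 (adjusted p = 0.0533). Ncapg and Ckap2l were chosen after their values were seen. Capitals mark CCAAT and TTTGAA or their reverse complements, ATTGG and TTCAAA.
Depdc1: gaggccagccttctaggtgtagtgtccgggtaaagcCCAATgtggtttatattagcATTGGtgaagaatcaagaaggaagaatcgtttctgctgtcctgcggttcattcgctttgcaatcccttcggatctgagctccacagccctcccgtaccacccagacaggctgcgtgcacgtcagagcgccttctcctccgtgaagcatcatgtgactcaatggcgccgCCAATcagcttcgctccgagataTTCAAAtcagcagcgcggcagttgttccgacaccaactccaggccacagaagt
Spc25: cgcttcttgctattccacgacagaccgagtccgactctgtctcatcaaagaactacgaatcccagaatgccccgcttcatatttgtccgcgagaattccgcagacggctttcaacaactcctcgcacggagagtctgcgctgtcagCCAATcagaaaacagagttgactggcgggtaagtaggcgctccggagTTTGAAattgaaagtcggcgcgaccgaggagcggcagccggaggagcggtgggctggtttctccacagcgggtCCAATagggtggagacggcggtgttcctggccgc
Ncapg: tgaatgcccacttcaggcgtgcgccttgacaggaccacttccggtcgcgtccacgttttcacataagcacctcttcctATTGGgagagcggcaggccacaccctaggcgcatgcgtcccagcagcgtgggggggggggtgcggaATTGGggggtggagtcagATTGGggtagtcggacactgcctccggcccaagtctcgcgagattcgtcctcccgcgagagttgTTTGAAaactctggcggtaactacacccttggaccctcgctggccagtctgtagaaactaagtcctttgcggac
Ckap2l: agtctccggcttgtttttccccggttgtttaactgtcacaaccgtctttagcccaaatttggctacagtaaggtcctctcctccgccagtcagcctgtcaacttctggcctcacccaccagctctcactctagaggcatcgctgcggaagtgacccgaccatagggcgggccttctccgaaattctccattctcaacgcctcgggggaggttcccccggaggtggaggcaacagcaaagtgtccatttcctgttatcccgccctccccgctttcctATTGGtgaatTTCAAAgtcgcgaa

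Endothelial genes, already lower in MCT lungs at week 2, were lower again at week 3. Of 36 pan-endothelial genes 21 went down (58.3%), with a median change of -0.52, and the median MCT effect was -1.17 at week 3 and -0.74 at week 2. At week 3, 34 of the 36 were lower in MCT than in PBS lungs, and at week 2, 25 were. The MCT arm was the larger one: the median was -0.65 between 3-week and 2-week MCT lungs, where 26 genes were lower at week 3, and -0.12 between PBS lungs. In only 1 of the 21 called genes was the PBS difference the larger one. Of the 21, 15 were lower in MCT lungs at both weeks, and 6 were lower at week 3 and not called at week 2: Nostrin, Adgrl4, Emcn, S1pr1, Kdr and Mmrn2.

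Calcrl, the receptor for adrenomedullin and CGRP, had 236, 160.3, 184 and 177 CPM in 3-week MCT lungs, against 2198, 2264, 2228 and 1623 CPM in 3-week PBS lungs. Calcrl had 615, 537, 722 and 666 CPM in 2-week MCT lungs, against 1738, 1602, 1341 and 1673 CPM in 2-week PBS lungs. Every 3-week MCT lung was below every 2-week MCT lung, and both were below the PBS lungs. The MCT effect was -3.45 at week 3 and -1.32 at week 2, and it changed by -2.13 ± 0.19 on the log2 scale (SE, adjusted p = 2.9e-05). Tek encodes TIE2, the angiopoietin receptor, and had 59.4, 57.1, 76.3 and 71.8 CPM in 3-week MCT lungs, against 694, 729, 838 and 736 CPM in 3-week PBS lungs. Tek had 139.9, 136, 149 and 135 CPM in 2-week MCT lungs, against 564, 474, 511 and 489.6 CPM in 2-week PBS lungs. Here the arms moved apart, since MCT lungs were lower and PBS lungs higher at 3 weeks without overlap, and the change was -1.64 ± 0.14 (SE, adjusted p = 2.9e-05). Calcrl and Tek are among the 9 genes still called down with all 24 libraries.

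Bmpr2, the BMP type 2 receptor mutated in heritable pulmonary arterial hypertension, had 182, 150.4, 166 and 126 CPM in 3-week MCT lungs, against 476, 474, 558 and 517 CPM in 3-week PBS lungs. Bmpr2 had 281, 288, 237 and 272 CPM in 2-week MCT lungs, against 498, 364, 469 and 521 CPM in 2-week PBS lungs. MCT lungs were below PBS lungs at each week, 3-week MCT lungs were below 2-week MCT lungs, and the PBS groups overlapped. Its change was -0.91 ± 0.17 (SE, adjusted p = 0.0057), and adjusted p = 0.149 in the 22 libraries that include week 1. Of 17 genes of BMP and TGF-beta signalling 5 went down (29.4%, near the 26.1% of all genes with a symbol) and 1 went up. The count down was 3 without replicate 3 of the 2-week or replicate 4 of the 3-week MCT lungs. The list had medians of -0.20 in the MCT arm and -0.17 in the PBS arm. The type 1 receptor Bmpr1a changed by -0.88 ± 0.19 (SE, adjusted p = 0.009), with adjusted p = 0.0976 in those 22 libraries. The activin receptor Acvr2a changed by -0.82 ± 0.23 (SE, adjusted p = 0.024), a call lost without either of those MCT replicates (adjusted p up to 0.0549), and Tmem100, an endothelial gene induced by BMP9 and BMP10, by -0.85 ± 0.17 (SE, adjusted p = 0.0073).

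Of 15 genes of VEGF and angiopoietin signalling 8 went down (53.3%), with medians of -0.46 in the MCT arm and 0.086 in the PBS arm. Kdr, the main VEGF receptor, had 379, 269.6, 333 and 251 CPM in 3-week MCT lungs, against 743, 671, 709 and 634 CPM in 3-week PBS lungs. Kdr had 459, 459.8, 450.3 and 581 CPM in 2-week MCT lungs, against 671, 537, 564 and 701 CPM in 2-week PBS lungs. At week 2 MCT and PBS lungs overlapped and at week 3 they did not, and the change was -0.82 ± 0.18 (SE, adjusted p = 0.01). Nrp1, a VEGF co-receptor, changed by -0.97 ± 0.17 (SE, adjusted p = 0.0046). The count of 8 was 4 or 5 without any of 9 single libraries: replicates 2, 3 and 4 of the 2-week PBS lungs, 3 and 4 of the 2-week MCT lungs, 3 of the 3-week PBS lungs, and 2, 3 and 4 of the 3-week MCT lungs. Of 13 capillary genes 7 went down (53.8%), with medians of -0.84 in the MCT arm and -0.17 in the PBS arm, and 4 did without any of 6 libraries: replicate 3 of the 2-week PBS lungs, 3 or 4 of the 2-week MCT lungs, 1 or 2 of the 3-week PBS lungs, or 4 of the 3-week MCT lungs. Aplnr, the apelin receptor, had 71.8, 60.7, 62 and 55 CPM in 3-week MCT lungs, against 232, 219.9, 175 and 124 CPM in 3-week PBS lungs. Aplnr had 173, 142, 140.2 and 162 CPM in 2-week MCT lungs, against 198, 225, 216 and 328 CPM in 2-week PBS lungs. MCT lungs were lower than PBS lungs at both weeks, and the change was -0.94 ± 0.25 (SE, adjusted p = 0.021).

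Receptors and enzymes that act on vascular tone went down in 11 of 31 cases (35.5%, against 26.1% of all genes with a symbol). In 1 case, the prostaglandin receptor Ptger1, the change was upward. The medians were -0.37 in the MCT arm, where 12 genes were lower at week 3, and -0.088 in the PBS arm, where 2 were. Glp1r, the receptor for glucagon-like peptide 1, had 19.2, 24.3, 26 and 33.6 CPM in 3-week MCT lungs, against 148, 156, 108 and 118 CPM in 3-week PBS lungs. Glp1r had 65.5, 97.5, 90.5 and 94.4 CPM in 2-week MCT lungs, against 178, 197, 169 and 158 CPM in 2-week PBS lungs. It was lower at 3 weeks in both arms without overlap, more so in MCT lungs, and the change was -1.35 ± 0.23 (SE, adjusted p = 0.004). Hpgd, which breaks down prostaglandins, had 9.63, 5.84, 10.3 and 11.4 CPM in 3-week MCT lungs, against 122, 156, 160.5 and 111 CPM in 3-week PBS lungs. Hpgd had 11, 11, 25.4 and 19.2 CPM in 2-week MCT lungs, against 90.6, 90.5, 74.2 and 85.3 CPM in 2-week PBS lungs. MCT lungs held little of it at either week, PBS lungs were higher at 3 weeks, and the change was -1.53 ± 0.34 (SE, adjusted p = 0.0098). Gucy1a1 and Gucy1b1 form the soluble guanylate cyclase that answers nitric oxide, and were added after their values were seen. Gucy1a1 had 129, 104, 123 and 104 CPM in 3-week MCT lungs, against 250.5, 345, 284 and 219 CPM in 3-week PBS lungs. Gucy1a1 had 166, 195, 212 and 229.7 CPM in 2-week MCT lungs, against 239, 229.9, 179 and 245 CPM in 2-week PBS lungs. MCT and PBS lungs overlapped at week 2, MCT lungs were lower without overlap at week 3, and the change was -1.10 ± 0.20 (SE, adjusted p = 0.0052), with -1.01 ± 0.19 (SE, adjusted p = 0.0057) for Gucy1b1. Ramp2, which makes Calcrl an adrenomedullin receptor, changed by -1.02 ± 0.18 (SE, adjusted p = 0.0043) and was also added after its values were seen. Thbd, thrombomodulin of the anticoagulant endothelial surface, changed by -0.81 ± 0.14 (SE, adjusted p = 0.004), and Tfpi, the inhibitor of tissue factor, by -0.89 ± 0.22 (SE, adjusted p = 0.015).

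Jam2, a junctional adhesion molecule, changed by -1.26 ± 0.17 (SE, adjusted p = 0.0011). Cav1, which forms caveolae, had 839, 700.3, 825 and 802 CPM in 3-week MCT lungs, against 1924, 1933, 2163 and 1635 CPM in 3-week PBS lungs. Cav1 had 1054, 1089, 1796 and 1608 CPM in 2-week MCT lungs, against 1760, 1822, 1664 and 1595 CPM in 2-week PBS lungs. The MCT and PBS lungs overlapped at week 2 and were apart at week 3, with a change of -0.97 ± 0.21 (SE, adjusted p = 0.0086). Nostrin, a trafficking partner of endothelial nitric oxide synthase, changed by -1.93 ± 0.33 (SE, adjusted p = 0.004). Of 15 arterial and Notch genes 1 went up and 3 went down (20%, against 26.1% of all genes with a symbol). The medians were -0.30 in the MCT arm and -0.12 in the PBS arm. Dll4, a Notch ligand of arteries and sprouting tips, had 30.8, 36.8, 31.2 and 26.2 CPM in 3-week MCT lungs, against 127, 154, 189 and 128 CPM in 3-week PBS lungs. Dll4 had 19.6, 15.1, 18.6 and 14.8 CPM in 2-week MCT lungs, against 102, 115, 126 and 132 CPM in 2-week PBS lungs. It was far lower in MCT lungs at both weeks, yet its 3-week MCT lungs were above its 2-week MCT lungs. Its change of 0.54 ± 0.20 (SE, adjusted p = 0.073) was not called, though DESeq2 and limma-voom called it, as did the fit without replicate 3 of the 3-week PBS lungs (adjusted p = 0.0239). Efnb2, an ephrin of arteries, changed by -0.67 ± 0.13 (SE, adjusted p = 0.0067).

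Interferon-stimulated genes were lower in MCT than in PBS lungs at week 3, with little difference at week 2, and the larger arm was that of the PBS lungs. All 42 tested members had a negative change, 30 of them called (71.4%), with a median of -1.18. At week 3 all 42 were lower in MCT than in PBS lungs, while the median MCT effect was -1.22 at week 3 and -0.11 at week 2. In PBS lungs 32 genes were higher at week 3 than at week 2, with a median of 0.88, and in MCT lungs the median was -0.26 and 1 gene was lower. In all 30 called genes the PBS difference was the larger arm, and all 30 were without a called effect at week 2 and lower in MCT lungs at week 3. Leaving out 1 library gave 20 to 36 called members.

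Ifi44l, an interferon-induced gene, had 15.1, 8.24, 15.5 and 12.7 CPM in 3-week MCT lungs, against 44.2, 75.2, 75.3 and 86.7 CPM in 3-week PBS lungs. Ifi44l had 21.8, 14.2, 21.1 and 23.7 CPM in 2-week MCT lungs, against 28.9, 28.6, 23.7 and 21.4 CPM in 2-week PBS lungs. The 3-week PBS lungs lay above all others, and the change was -2.10 ± 0.31 on the log2 scale (SE, adjusted p = 0.0028). Mx1, an antiviral GTPase, had 32.3, 24, 75.4 and 40.1 CPM in 3-week MCT lungs, against 65.7, 152, 129 and 404 CPM in 3-week PBS lungs. Mx1 had 63.5, 53.3, 22.1 and 43.7 CPM in 2-week MCT lungs, against 43.6, 48.7, 37.5 and 45.9 CPM in 2-week PBS lungs. Replicates of the 3-week PBS lungs were far apart, and MCT and PBS lungs overlapped at both weeks. Its change of -2.18 ± 0.63 (SE, adjusted p = 0.027) was lost without replicate 3 of the 2-week PBS lungs, replicate 1 of the 2-week MCT lungs, or replicate 2 or 4 of the 3-week MCT lungs (adjusted p up to 0.0588), and with a robust dispersion. Rsad2, which encodes viperin, changed by -2.03 ± 0.53 (SE, adjusted p = 0.018) and Herc6, an enzyme that attaches ISG15 in mice, by -2.20 ± 0.50 (SE, adjusted p = 0.011).

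The summed level of the list was 2005 to 3173 CPM in 3-week MCT lungs, against 3157 to 8552 CPM in 3-week PBS lungs, and 2070 to 3110 CPM in 2-week MCT lungs, against 2776 to 3175 CPM in 2-week PBS lungs. The spread was widest in the 3-week PBS lungs, with replicate 4 highest. Replicate 1, at 3157 CPM, lay within the range of the 2-week PBS lungs. Its Herc6 (68.8 CPM) and Rsad2 (19.95 CPM) also lay within their 2-week PBS values, while its Ifi44l and Mx1 lay above theirs. Of 27 markers of T and NK cells 9 went down (33.3%), near the 26.1% of all genes with a symbol, with a median of -0.97, and between 2 and 5 did when 1 of 7 libraries, named beside Klrd1, was left out. Of the 27, 13 were higher in 3-week than in 2-week PBS lungs, against 620 of the 3275 genes with a symbol. The median was 0.014 in the MCT arm and 0.90 in the PBS arm. Their summed level was 270 to 442 CPM in 3-week MCT lungs, against 403 to 972 CPM in 3-week PBS lungs, and 220 to 340 CPM in 2-week MCT lungs, against 391 to 477 CPM in 2-week PBS lungs. By replicate, the T and NK sum was 972, 403, 550 and 850 CPM in 3-week PBS lungs. The interferon-stimulated sum of the same lungs was 3157, 5369, 5312 and 8552 CPM. Replicate 1 was thus highest for the first sum and lowest for the second. The part of T and NK cells in the interferon result was not tested.

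**Figure D4:**
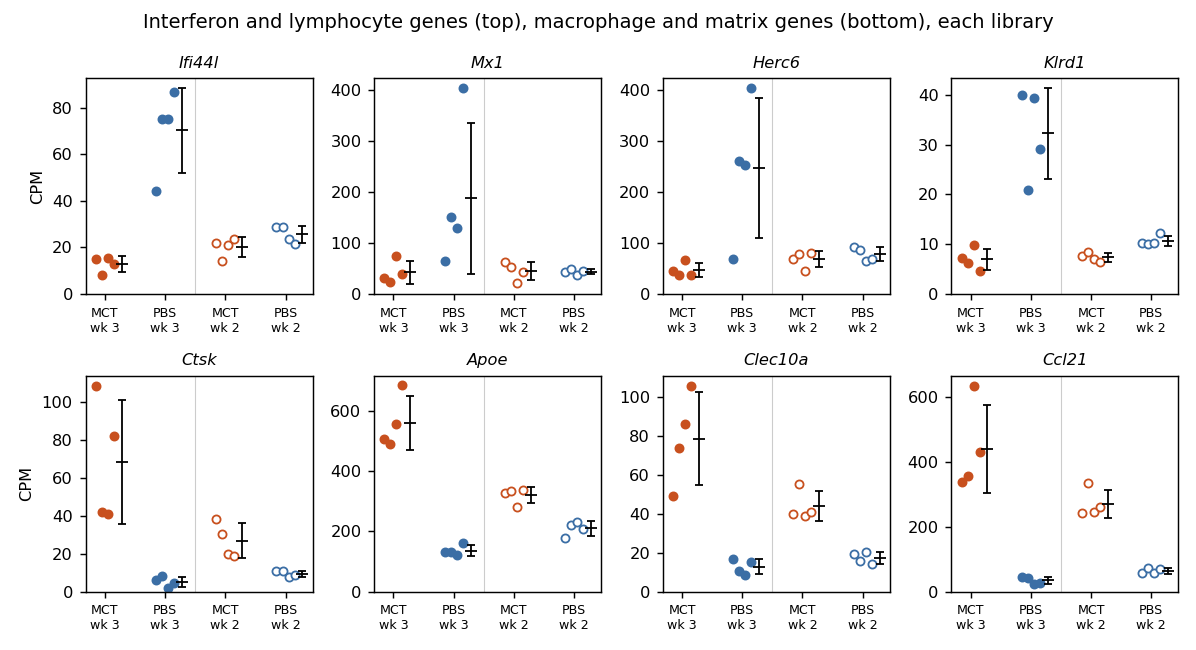
Level in CPM in each lung for Ifi44l, Mx1 and Herc6 (interferon-stimulated), Klrd1 (NK cells), Ctsk, Apoe and Clec10a (macrophages) and the chemokine Ccl21, drawn as in the plot of endothelial and mitotic genes. The 3-week PBS lungs are highest for Ifi44l and Klrd1, and the 3-week MCT lungs are highest for Ctsk and Apoe.

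Of 33 interferon promoters found in RefSeq, 22 (66.7%) hold the interferon-stimulated response element on either strand, searched as GAAA, any 2 bases and GAAA again, against 3.77% of all promoters. Of 24 promoters of called genes 16 hold it, the same share. The 4 promoters printed belong to the called genes with the most negative change whose promoter holds the motif, which capitals mark on either strand. They lie at chr2:243328473-243328772 (+ strand) for Ifi44l, chr6:48788071-48788370 (- strand) for Rsad2, chr4:32138909-32139208 (- strand) for Samd9 and chr10:57415685-57415984 (+ strand) for Xaf1. Samd9 and Xaf1 were chosen after their values were seen. Samd9, a restriction factor of poxviruses, changed by -1.90 ± 0.31 (SE, adjusted p = 0.004) and Xaf1, which binds the apoptosis inhibitor XIAP, by -1.86 ± 0.32 (SE, adjusted p = 0.004).
Ifi44l: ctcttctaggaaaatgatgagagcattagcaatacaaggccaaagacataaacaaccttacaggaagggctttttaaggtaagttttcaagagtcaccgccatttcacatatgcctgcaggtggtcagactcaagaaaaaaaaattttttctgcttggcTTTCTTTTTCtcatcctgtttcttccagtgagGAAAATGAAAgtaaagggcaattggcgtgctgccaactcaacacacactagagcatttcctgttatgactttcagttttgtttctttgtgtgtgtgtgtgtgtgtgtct
Rsad2: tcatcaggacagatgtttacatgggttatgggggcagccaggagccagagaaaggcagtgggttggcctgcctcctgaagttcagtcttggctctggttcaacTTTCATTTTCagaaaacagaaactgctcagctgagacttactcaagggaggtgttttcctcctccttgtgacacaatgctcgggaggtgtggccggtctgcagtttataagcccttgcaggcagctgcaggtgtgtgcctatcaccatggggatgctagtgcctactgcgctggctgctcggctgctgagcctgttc
Samd9: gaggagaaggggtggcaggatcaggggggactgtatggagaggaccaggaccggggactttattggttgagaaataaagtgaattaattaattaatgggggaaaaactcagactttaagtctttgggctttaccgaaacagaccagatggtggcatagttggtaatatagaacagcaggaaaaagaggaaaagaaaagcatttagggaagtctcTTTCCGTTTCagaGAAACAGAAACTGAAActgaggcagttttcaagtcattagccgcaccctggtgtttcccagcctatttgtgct
Xaf1: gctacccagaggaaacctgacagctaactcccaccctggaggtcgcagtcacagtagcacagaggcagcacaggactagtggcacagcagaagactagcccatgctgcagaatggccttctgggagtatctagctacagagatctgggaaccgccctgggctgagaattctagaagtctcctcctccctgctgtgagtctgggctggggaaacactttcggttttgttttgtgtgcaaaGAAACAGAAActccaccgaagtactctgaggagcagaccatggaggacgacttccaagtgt

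Klrd1, the CD94 receptor of NK cells, had 7.16, 6.31, 9.82 and 4.68 CPM in 3-week MCT lungs, against 39.9, 20.8, 39.4 and 29 CPM in 3-week PBS lungs. Klrd1 had 7.72, 8.46, 7.06 and 6.38 CPM in 2-week MCT lungs, against 10.3, 10.1, 10.2 and 12.2 CPM in 2-week PBS lungs. PBS lungs were higher at 3 weeks than at 2 weeks without overlap, MCT lungs overlapped between weeks, and the change was -1.67 ± 0.31 (SE, adjusted p = 0.0052). Klrc2, a related NK receptor, was higher in MCT than in PBS lungs at week 2 and overlapped with them at week 3. Klrc2 had 14.1, 11.9, 17.3 and 12.9 CPM in 3-week MCT lungs, against 27.8, 10.4, 26.2 and 24.4 CPM in 3-week PBS lungs. Klrc2 had 17.1, 18.7, 10.6 and 15.1 CPM in 2-week MCT lungs, against 7.13, 6.95, 5.25 and 5.75 CPM in 2-week PBS lungs. It changed by -1.96 ± 0.35 (SE, adjusted p = 0.005). The count of 9 was 4 and 5 without replicates 2 and 3 of the 2-week PBS lungs, 5 and 3 without replicates 2 and 4 of the 2-week MCT lungs, 3 without replicate 1 of the 3-week PBS lungs, and 3 and 2 without replicates 2 and 4 of the 3-week MCT lungs.

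Of 9 markers of B and plasma cells 2 went down, Ms4a1 and Jchain (22.2%, against 26.1% of all genes with a symbol). The list had medians of -0.017 in the MCT arm and 0.62 in the PBS arm. Ms4a1 encodes CD20 of B cells and had 10.2, 3.45, 7.84 and 5.5 CPM in 3-week MCT lungs, against 19.6, 16.7, 13.2 and 14.2 CPM in 3-week PBS lungs. Ms4a1 had 9.38, 9.78, 7.19 and 7.89 CPM in 2-week MCT lungs, against 8.55, 6.16, 6.35 and 8.76 CPM in 2-week PBS lungs. The 3-week PBS lungs were above all other groups, and the change was -1.44 ± 0.36 (SE, adjusted p = 0.016). Jchain, which joins IgA and IgM into polymers, changed by -1.85 ± 0.60 (SE, adjusted p = 0.044), with overlap between MCT and PBS lungs at week 3. Its call was lost, which left 1 of the 9 markers, without replicate 1 or 2 of the 2-week PBS lungs, 1, 2 or 4 of the 2-week MCT lungs, 1 or 2 of the 3-week PBS lungs, or 2, 3 or 4 of the 3-week MCT lungs (adjusted p up to 0.106). Il15, the cytokine that sustains NK cells, had 14.1, 9.51, 10.1 and 10.2 CPM in 3-week MCT lungs, against 30.8, 43.8, 59.2 and 28.1 CPM in 3-week PBS lungs. Il15 had 11.6, 13.6, 18.9 and 12.2 CPM in 2-week MCT lungs, against 21.8, 22.8, 19.2 and 20.8 CPM in 2-week PBS lungs. It was higher in 3-week than in 2-week PBS lungs, and the change was -1.29 ± 0.30 (SE, adjusted p = 0.012). Casp1, the inflammasome protease, had 39.6, 30.0, 37.5 and 31.9 CPM in 3-week MCT lungs, against 87.8, 85.6, 109 and 102 CPM in 3-week PBS lungs. Casp1 had 49.2, 42.1, 48.3 and 59.5 CPM in 2-week MCT lungs, against 60.0, 52.5, 48.1 and 58.7 CPM in 2-week PBS lungs. Its 3-week PBS lungs stood above the other groups, its 3-week MCT lungs below them, and it changed by -1.33 ± 0.17 (SE, adjusted p = 0.0011). Aim2, a sensor of cytosolic DNA that activates caspase 1, changed by -1.36 ± 0.36 (SE, adjusted p = 0.02).

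Some macrophage genes, already induced at week 2, were induced further. Of 34 macrophage and monocyte markers 5 went up (14.7%, against 8.89% of all genes with a symbol), with a median change of 0.28. The 5 were Lgmn, Ctsb, Clec10a, Apoe and Ctsk, all of them higher in MCT lungs at both weeks. The median MCT effect of the list was 1.49 at week 3 and 1.01 at week 2, and the medians were 0.51 in the MCT arm and 0.12 in the PBS arm. The count was 8 without replicate 1 of the 2-week MCT lungs. Ctsk, a cathepsin that degrades collagen, had 108, 42.2, 41.1 and 81.8 CPM in 3-week MCT lungs, against 6.07, 8.24, 1.82 and 4.77 CPM in 3-week PBS lungs. Ctsk had 38.4, 30.5, 19.7 and 19 CPM in 2-week MCT lungs, against 10.8, 10.9, 7.74 and 8.59 CPM in 2-week PBS lungs. MCT lungs were above PBS lungs at both weeks and higher at 3 weeks, and the effect changed by 2.21 ± 0.53 on the log2 scale (SE, adjusted p = 0.013). Apoe, apolipoprotein E of lipid-laden macrophages, had 505, 489, 554 and 686 CPM in 3-week MCT lungs, against 130.1, 133, 121 and 161 CPM in 3-week PBS lungs. Apoe had 328, 334, 281 and 336 CPM in 2-week MCT lungs, against 177, 222, 231 and 209 CPM in 2-week PBS lungs. MCT lungs were higher and PBS lungs lower at 3 weeks, with no overlap in either arm, and the change was 1.43 ± 0.17 (SE, adjusted p = 0.00069).

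Clec10a, a lectin of alternatively activated macrophages, changed by 1.30 ± 0.32 (SE, adjusted p = 0.015) and Ctsb, a lysosomal cathepsin, by 0.82 ± 0.19 (SE, adjusted p = 0.011). Other markers were higher in MCT lungs at both weeks and did not pass the test for a change: C1qb, a complement subunit made by macrophages, gave 0.43 ± 0.33 (SE, adjusted p = 0.39), Cd68 gave 0.76 ± 0.29 (SE, adjusted p = 0.08) and Gpnmb, a glycoprotein of foamy macrophages, gave 0.47 ± 0.35 (SE, adjusted p = 0.38). Cd68 passed without replicate 1 of the 2-week MCT lungs (adjusted p = 0.0186). Retnla, a marker of alternative activation in mice, gave -0.45 ± 0.46 (SE, adjusted p = 0.54), and 0.040 without that same library. Hmox1, haem oxygenase 1, had 203, 224, 241 and 270.2 CPM in 3-week MCT lungs, against 21, 27.6, 24.6 and 42 CPM in 3-week PBS lungs. Hmox1 had 176, 126, 80.7 and 100.3 CPM in 2-week MCT lungs, against 25.3, 30.6, 49.5 and 39.3 CPM in 2-week PBS lungs. MCT lungs were above PBS lungs at both weeks and higher at 3 weeks, and the change was 1.28 ± 0.35 (SE, adjusted p = 0.021), which was lost without replicate 3 of the 2-week PBS lungs (adjusted p = 0.0505).

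Ccl21, the chemokine that guides lymphocytes and dendritic cells by CCR7, had 339, 355, 633 and 430.4 CPM in 3-week MCT lungs, against 46.2, 42.1, 25.3 and 26.4 CPM in 3-week PBS lungs. Ccl21 had 242, 335, 247 and 260.3 CPM in 2-week MCT lungs, against 56.5, 71.9, 56.3 and 69 CPM in 2-week PBS lungs. MCT lungs were higher and PBS lungs lower at 3 weeks, and the change was 1.55 ± 0.30 (SE, adjusted p = 0.0058). Its adjusted p was 0.051 in the 22 libraries that include week 1. Socs3, an inhibitor of cytokine receptors, had 20.6, 37.3, 32.5 and 49.9 CPM in 3-week MCT lungs, against 15.7, 15.1, 11.3 and 11.5 CPM in 3-week PBS lungs. Socs3 had 21, 17.6, 12 and 16.1 CPM in 2-week MCT lungs, against 15.8, 23.8, 22.1 and 21.6 CPM in 2-week PBS lungs. MCT and PBS lungs overlapped at week 2, all 3-week MCT lungs were above the 3-week PBS lungs, and the change was 1.71 ± 0.32 (SE, adjusted p = 0.0057). Cfd, complement factor D, changed by 1.62 ± 0.42 (SE, adjusted p = 0.018), with the 3-week MCT lungs above all others. Pf4, a platelet chemokine, changed by 1.37 ± 0.38 (SE, adjusted p = 0.023), and this call was lost without replicate 2 of the 2-week PBS lungs or replicate 4 of the 3-week MCT lungs (adjusted p up to 0.0546).

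Matrix genes changed upward in 9 of 58 cases (15.5%, against 8.89% of all genes with a symbol). They changed downward in 2 (1 to 3 without 1 library), and the median was 0.31. The MCT arm had a median of -0.088, with 3 genes higher and 8 lower in 3-week than in 2-week MCT lungs. The PBS arm had a median of -0.37, with 17 of the 58 lower at week 3, against 301 of the 3275 genes with a symbol. Without replicate 1 of the 3-week MCT lungs 15 went up. Mmp14, a membrane-bound collagenase, had 198, 224, 224 and 287 CPM in 3-week MCT lungs, against 77.1, 64.9, 41.1 and 68.5 CPM in 3-week PBS lungs. Mmp14 had 241, 208, 125 and 159.6 CPM in 2-week MCT lungs, against 95.5, 106, 97.3 and 118 CPM in 2-week PBS lungs. MCT lungs were above PBS lungs at both weeks, PBS lungs were lower at 3 weeks without overlap, and the change was 1.07 ± 0.28 (SE, adjusted p = 0.017). Col15a1, a basement membrane collagen, has 2 identifiers in the table, and the called one had 27.2, 20.7, 13.3 and 8.35 CPM in 3-week MCT lungs, against 9.07, 3.53, 7.96 and 7.99 CPM in 3-week PBS lungs. Col15a1 had 25.6, 18.6, 14.1 and 17.8 CPM in 2-week MCT lungs, against 29.8, 37, 27.4 and 34.9 CPM in 2-week PBS lungs. Its PBS lungs were lower at 3 weeks, its MCT groups overlapped, and the change was 2.04 ± 0.44 (SE, adjusted p = 0.009), while the other identifier gave 1.07 (adjusted p = 0.125). Fn1, fibronectin, gave 0.49 ± 0.25 (SE, adjusted p = 0.18) and Thbs2, a matricellular protein, 0.84 ± 0.34 (SE, adjusted p = 0.1), the last of which passed without replicate 1 of the 2-week MCT lungs (adjusted p = 0.0149). Vash1, a vasohibin that endothelial cells make as a brake on vessel growth, had 20.2, 25.7, 27 and 25.8 CPM in 3-week MCT lungs, against 8.27, 11.2, 5.56 and 9.95 CPM in 3-week PBS lungs. Vash1 had 23.1, 25.5, 14 and 25.7 CPM in 2-week MCT lungs, against 20.5, 19.7, 28.4 and 28.9 CPM in 2-week PBS lungs. The 3-week PBS lungs were below all other groups, and the change was 1.64 ± 0.31 (SE, adjusted p = 0.0057).

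Epithelial lists were mixed. Of 9 alveolar type 1 genes 3 went up (Ager, Spock2 and Col4a3) and 3 went down (Cav1, Cav2 and Clic5), with medians of -0.23 in the MCT arm and -0.20 in the PBS arm. The calls of Spock2 and Col4a3 were lost in the 22 libraries that include week 1 (adjusted p = 0.0626 and 0.0935), and that of Spock2 also without replicate 3 of the 2-week PBS lungs or replicate 2 or 4 of the 3-week MCT lungs (adjusted p up to 0.0568). For Ager, whose levels stand above, the PBS arm was -0.80, and the change of 0.80 ± 0.21 (SE, adjusted p = 0.021) was lost without replicate 4 of the 3-week MCT lungs (adjusted p = 0.0523), where 1 of the 9 genes went up. Of 20 airway genes 2 went up (10%), near the 8.89% of all genes with a symbol. Krt7, a keratin of simple epithelia, went up by 0.98 ± 0.22 (SE, adjusted p = 0.01), and Por, the reductase that supplies cytochromes P450, by 0.98 ± 0.23 (SE, adjusted p = 0.013). The summed level of airway genes was 6041 to 11105 CPM in 3-week MCT lungs, against 12708 to 19471 CPM in 3-week PBS lungs, and 5948 to 11818 CPM in 2-week MCT lungs, against 8303 to 11335 CPM in 2-week PBS lungs. The 3-week PBS lungs were above all others. Most of this sum is Scgb1a1, the secretoglobin of club cells, which had 6605, 8568, 4257 and 4613 CPM in 3-week MCT lungs, against 10660, 14030, 18040 and 12810 CPM in 3-week PBS lungs. Scgb1a1 had 4910, 4362, 10140 and 6268 CPM in 2-week MCT lungs, against 5831, 8590, 8389 and 7293 CPM in 2-week PBS lungs. Its change of -0.98 ± 0.36 (SE, adjusted p = 0.07) did not pass the test, and passed without replicate 2 of the 2-week MCT lungs (adjusted p = 0.04) or replicate 2 of the 3-week MCT lungs.

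Cyp1a1, a cytochrome P450 induced by the aryl hydrocarbon receptor, had 13.4, 3.36, 2.42 and 2.26 CPM in 3-week MCT lungs, against 136, 132, 240.1 and 198 CPM in 3-week PBS lungs. Cyp1a1 had 24.9, 12.2, 123 and 72 CPM in 2-week MCT lungs, against 112, 550.5, 147 and 219 CPM in 2-week PBS lungs. MCT lungs were below PBS lungs at week 3, the groups overlapped and varied widely at week 2, and its change of -2.90 ± 0.94 (SE, adjusted p = 0.044) was lost in 12 of the 16 fits that leave out 1 library, with adjusted p up to 0.113. Those fits left out any library but replicate 2 of the 2-week PBS lungs, replicates 1 and 2 of the 2-week MCT lungs and replicate 1 of the 3-week MCT lungs.

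All 6 tested genes of mitochondrial DNA that have a symbol went down, with a median of -1.10. The median was -0.083 in the MCT arm and 0.96 in the PBS arm. The 6 genes summed to 7254 to 11767 CPM in 3-week PBS lungs, and other mitochondrial genes are outside this list. ND2, a subunit of respiratory complex I, had 2905, 2734, 1738 and 2472 CPM in 3-week MCT lungs, against 3540, 4126, 5345 and 2964 CPM in 3-week PBS lungs. ND2 had 2546, 2307, 3428 and 2639 CPM in 2-week MCT lungs, against 1877, 2061, 2492 and 2099 CPM in 2-week PBS lungs. The 3-week PBS lungs were above the 2-week PBS lungs and the 3-week MCT lungs, and the change was -1.05 ± 0.25 (SE, adjusted p = 0.013). ND6, the subunit encoded on the other strand, changed by -1.14 ± 0.31 (SE, adjusted p = 0.021), a call lost without replicate 4 of the 3-week MCT lungs (adjusted p = 0.0506). The share of counts from mitochondrial DNA was 4.05 to 5.41% in 3-week PBS lungs and 2.87 to 3.28% in 2-week PBS lungs, and the part of this share in the result was not tested. The count of 6 was 3 without any of 6 libraries: replicate 4 of the 2-week PBS lungs, 3 or 4 of the 2-week MCT lungs, 3 of the 3-week PBS lungs, and 3 or 4 of the 3-week MCT lungs.

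**Figure D5:**
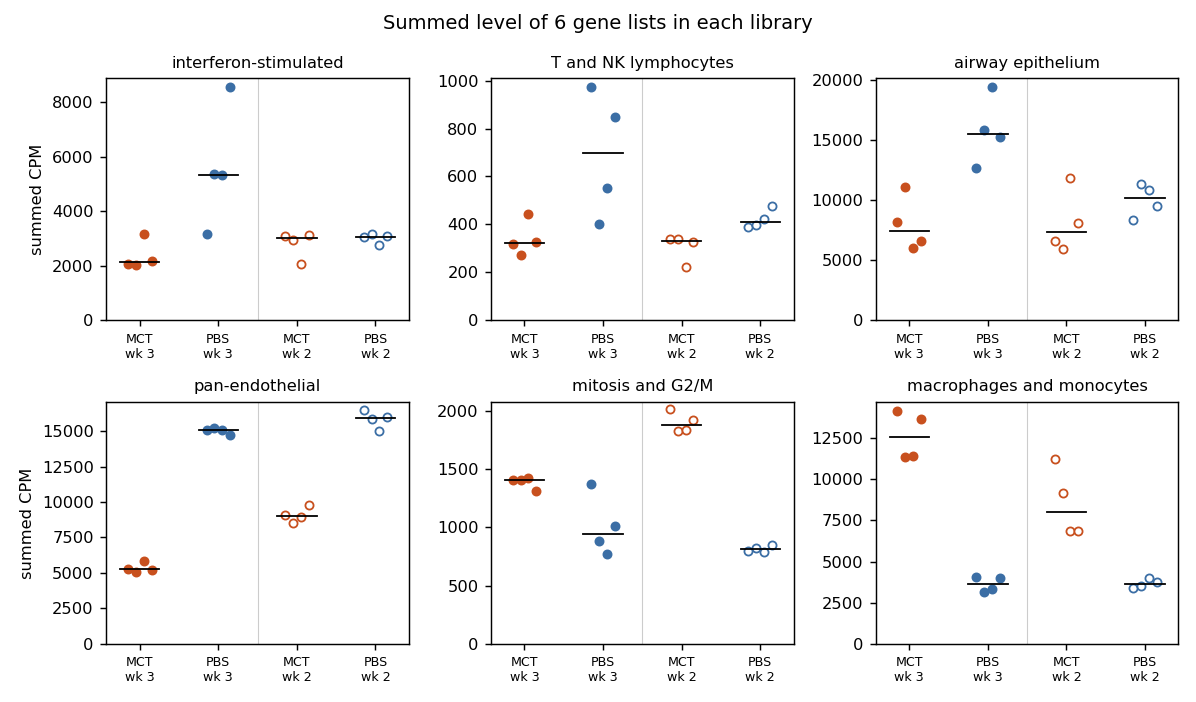
Summed CPM of 6 gene lists in each lung, with MCT in orange and PBS in blue, week 3 filled and week 2 open, and a line at each group's median. Pan-endothelial genes are lowest in 3-week MCT lungs (5093 to 5828 CPM), mitotic genes highest in 2-week MCT lungs (1832 to 2015 CPM), and interferon-stimulated genes reach 8552 CPM in 3-week PBS lungs.

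Among the 62 genes whose MCT effect turned, 20 have a symbol. Fas and Klrc2, described above, are among them. The effect on Fas was -0.37 at week 3 and 0.60 at week 2, and that on Klrc2 -0.66 at week 3 and 1.29 at week 2. Myh14, a non-muscle myosin heavy chain, was the most abundant gene that turned and was chosen after its values were seen. It had 352, 592, 517 and 602 CPM in 3-week MCT lungs, against 298, 274, 300.3 and 338 CPM in 3-week PBS lungs. Myh14 had 370.5, 429, 364 and 389 CPM in 2-week MCT lungs, against 527, 508, 697 and 533 CPM in 2-week PBS lungs. MCT lungs were above PBS lungs at 3 weeks and below them at 2 weeks without overlap, PBS lungs were lower at 3 weeks, and the change was 1.31 ± 0.20 on the log2 scale (SE, adjusted p = 0.0031). Ptger1, a receptor for prostaglandin E2, had 47.3, 68.1, 74.9 and 84.1 CPM in 3-week MCT lungs, against 35, 53.1, 51.3 and 47 CPM in 3-week PBS lungs. Ptger1 had 51.7, 64.5, 53.6 and 49.9 CPM in 2-week MCT lungs, against 82, 74.7, 94.1 and 88 CPM in 2-week PBS lungs. Its MCT lungs were below PBS lungs at week 2 and overlapped with them at week 3, and the change was 1.18 ± 0.22 (SE, adjusted p = 0.0057). Smc4, a condensin subunit, turned the other way, with an effect of -0.32 at week 3 and 0.68 at week 2.

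Some of the widest changes belong to genes without a symbol. ENSRNOG00000024181 had 205.1, 141, 130.5 and 277.9 CPM in 3-week MCT lungs, against 2.37, 1.29, 0.436 and 1.10 CPM in 3-week PBS lungs, and 9.29, 13.3, 5.10 and 7.63 CPM in 2-week MCT lungs, against 2.92, 10.6, 1.58 and 4.67 CPM in 2-week PBS lungs. The 3-week MCT lungs stood far above all others, and the change was 6.34 ± 0.71 (SE, adjusted p = 0.00045). It was still called with all 24 libraries. Among genes with a symbol, Lepr, the leptin receptor, had 2.27, 0.901, 1.21 and 0.982 CPM in 3-week MCT lungs, against 8.09, 14, 12.4 and 5.18 CPM in 3-week PBS lungs. Lepr had 2.56, 2.06, 4.86 and 3.76 CPM in 2-week MCT lungs, against 5.7, 6.39, 4.61 and 4.39 CPM in 2-week PBS lungs. The 3-week MCT lungs were below the 3-week PBS lungs, the week 2 groups overlapped, and the change was -2.21 ± 0.50 (SE, adjusted p = 0.011).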

How the data were processed

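Lung poly-A RNA of 16 rats, 4 MCT and 4 PBS at each of weeks 3 and 2, was analysed; the 8 libraries of week 1 entered alternatives only. The authors aligned reads to the rat genome (HISAT2 2.0.5) and counted reads per gene (featureCounts 2.0.3), and the deposited values are raw counts for 32883 genes. The annotation release and the strand setting of the counting are not given in the sources used here, so overlapping or near-identical genes may share reads. The authors tested differences with DESeq2 1.32.0. Their table of differentially expressed genes gave the symbols, and none of their fold changes or p-values was used.

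Groups came from the sample labels, and each library is 1 rat. Genes were filtered with filterByExpr, scaled by TMM and fitted with edgeR 4.0.16 (R 4.3.3) as 4 group means; quasi-likelihood tests gave the interaction, the MCT effect of each week and the difference between weeks in each arm, with Benjamini-Hochberg adjustment over 16893 genes and a threshold of 0.05. CPM of single genes were taken from the TMM-scaled library sizes, and summed CPM of lists from the library totals without TMM. Alternatives were RLE size factors, no filter or a floor of 10 counts throughout, a robust dispersion, limma-voom with quality weights (limma 3.58.1), DESeq2 1.42.0, a block for the replicate number, all 24 libraries, a fold over 1.5, an unadjusted p, and leaving out each library; a fit of 22 libraries was chosen after seeing the data. The test was checked on simulated counts.

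Genes that could be named were the 15 called genes with the most positive and the 15 with the most negative change. These were taken among genes with a symbol and a mean of at least 5 CPM in 1 group. Up to 4 called members per list and 32 genes whatever their values were added. Not all of these genes are given above. Of the 32, Acta2 and Pecam1 matched no symbol. By edgeR's quasi-likelihood test Sema3g, Slc26a4, Lcn2, Cpa3 and Gapdh were not called (adjusted p = 0.559, 0.528, 0.784, 0.254 and 0.106). Gapdh passed without replicate 1 of the 3-week PBS or MCT lungs. Hk3 was called (1.10, adjusted p = 0.0312), a call lost without any of 9 libraries. Genes named outside this rule are marked as chosen after their values were seen, or listed as members of a gene list. Members and the 32 gene lists were chosen with earlier results of these data known. Promoters were matched by symbol to RefSeq (GRCr8) for 2591 of 3275 genes with a symbol. No genome of the build used by the authors was used here, so the files' genes carry no coordinates.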

Additional observations from a re-analysis of the deposited data

Results flagged for a closer look

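The MCT effect differed between week 3 and week 2 in 1250 genes that went up and 1584 that went down, by the interaction itself. Among 62 genes whose effect changed sign with both effects called, 5 are given here. Myh14 changed by 1.31, with an effect of 0.77 at week 3 and -0.54 at week 2, Ptger1 by 1.18 (0.56 at week 3 and -0.63 at week 2), and Pagr1, a partner of histone methyltransferase complexes, by 1.62 (0.79 at week 3 and -0.83 at week 2). Fas changed by -0.97 (-0.37 at week 3 and 0.60 at week 2) and Klrc2 by -1.96 (-0.66 at week 3 and 1.29 at week 2). The adjusted p of these 5 lay between 0.003059 and 0.006797 by edgeR's quasi-likelihood test.

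Single lungs stood far from the other 3 of their group in 20 of 288 groups examined (61 genes and 11 measures per library), by Dixon's criterion, which chance meets in about 1 of 20 groups. Replicate 3 of the 2-week MCT lungs did so for 5 measures: Apoe was 281.1 CPM against 327.5 to 336 CPM in the others, Spc25 14.12 CPM against 7.872 to 8.904 CPM, the summed T and NK markers 219.87 CPM against 324.34 to 340.01 CPM, the interferon-stimulated sum 2069.7 CPM against 2941 to 3110.4 CPM, and the erythroid sum 1352.4 CPM against 649.48 to 742.35 CPM. In the same group, replicate 2 was apart for Fas (26.63 CPM against 23.86 to 24.08 CPM) and Clec10a (55.38 CPM against 39.07 to 41.05 CPM), and replicate 4 for Kdr (581.2 CPM against 450.3 to 459.8 CPM).

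In 3-week MCT lungs, replicate 1 was apart for Cyp1a1 (13.42 CPM against 2.259 to 3.357 CPM) and Il15 (14.12 CPM against 9.512 to 10.18 CPM), and replicate 2 for Ramp2 (18.19 CPM against 21.15 to 21.49 CPM). In the same group the interferon-stimulated sum of replicate 3 was 3172.7 CPM against 2004.6 to 2172.2 CPM, and the mitosis sum of replicate 4 was 1313.6 CPM against 1406.1 to 1422.6 CPM. In 3-week PBS lungs, Calcrl was 1623 CPM in replicate 4 against 2198 to 2264 CPM, and the identifier named Tpi1 was 0.1047 CPM in replicate 1 against 0.4417 to 0.4725 CPM. In 2-week PBS lungs, replicate 3 was apart for Myh14 (696.8 CPM against 507.9 to 533.3 CPM), Cfd (9.608 CPM against 5.405 to 6.051 CPM) and Gucy1b1 (104.6 CPM against 134.8 to 138.3 CPM), replicate 2 for Pf4 (15.44 CPM against 9.55 to 9.995 CPM) and replicate 4 for Klrd1 (12.2 CPM against 10.14 to 10.28 CPM).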

How the results depend on the processing

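The counts of genes whose MCT effect changed stayed within 1.5 times of 1250 up and 1584 down under RLE size factors, both other filters, DESeq2 (1649 and 2067), limma-voom (1716 and 2134), a robust dispersion and a fold over 1.5. They moved to 3 and 9 with all 24 libraries, 637 and 790 with 22, and 2564 and 2907 at an unadjusted p under 0.05. Leaving out 1 library gave 647 to 1725 up and 858 to 2190 down. In MCT lungs 279 genes were higher and 518 lower at week 3, which moved to 621 and 891 with DESeq2, 1209 and 1409 with limma-voom (1070 and 880 in PBS lungs), 2 and 61 with 24 libraries, 120 and 295 with 22, 165 and 306 with a fold over 1.5, 1610 and 1844 at an unadjusted p, and 53 to 522 and 251 to 838 without 1 library. In PBS lungs 1372 were higher and 1220 lower, which moved by edgeR to 0 and 0 with 24 libraries (DESeq2 called 1865 and 1657 in the 16), 724 and 681 with 22, 542 and 552 with a fold over 1.5, 2747 and 2586 at an unadjusted p, and 438 to 1665 and 386 to 1436 without 1 library. The causes of these shifts were not tested.

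Of 139 single genes, Retnla reversed, to 0.040 (adjusted p = 0.959) without replicate 1 of the 2-week MCT lungs, and ranged from -0.63 to 0.040 without 1 library. Calls were lost for 118 of them with 24 libraries, 23 with 22, and 4 to 29 without 1 library. With the replicate number as a block, 1102 genes went up and 1429 down, and 15 of the 139 lost their call, among them Mx1, Cyp1a1, Jchain and Ckap2l. Same-numbered MCT and PBS lungs correlated between -0.06 and 0.05, so the numbers do not pair them.

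Symbols cover 3275 of 16893 genes and genes higher in 3-week MCT lungs less often, so list counts lean downward. Genes that went down were longer (median 3185.5 bases) than those that went up (2114.5) or were not called (2124), and the part of length was not tested. Each week has its own rats, so week and any batch cannot be told apart in either arm.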

Other observations

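Other gene lists are given here in brief. Mast cell and neutrophil markers were not called by edgeR in either direction (0 of 11 and 0 of 9), although 2 and 3 went up at an unadjusted p under 0.05, DESeq2 called 1 of each and limma-voom 0. Their median changes were 0.48 and 0.53, against 0.28 for the macrophage list. In lists this short, the lack of calls does not show that the markers were unchanged. The summed neutrophil markers were 1562 to 2367 CPM in 3-week MCT lungs, against 126 to 329 CPM in 3-week PBS lungs, and 476 to 1448 CPM in 2-week MCT lungs, against 193 to 222 CPM in 2-week PBS lungs. By this sum all MCT lungs were above all PBS lungs, and the 3-week MCT lungs were above the 2-week MCT lungs. The single markers were mixed. Of the 9, 2 were higher and 1 lower in MCT lungs at week 3, and 3 were higher and 1 lower at week 2. Their median MCT effect was 0.45 at week 3 and -0.61 at week 2, so the sum does not stand for each marker. The macrophage sum was 11370 to 14150 CPM in 3-week MCT lungs, against 3140 to 4085 CPM in 3-week PBS lungs, and 6841 to 11260 CPM in 2-week MCT lungs, against 3417 to 3986 CPM in 2-week PBS lungs.

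Of the remaining lists, smooth muscle contractile genes gave 1 of 18 down, alveolar type 2 genes 1 of 9 down, fibroblast and pericyte genes 1 of 13 in each direction, erythroid genes 1 of 18 up, and haemostasis genes 2 of 22 in each direction. Cytokines and alarm signals gave 3 up and 7 down of 28, p53 targets 1 up and 4 down of 14, and genes of heat shock and ER stress 3 down of 18. Of all genes with a symbol 8.89% went up and 26.1% went down. The cytokines (10.7% and 25%) and p53 targets (7.14% and 28.6%) lay near these shares. Immediate early genes gave 1 of 6 down, clock genes 1 of 7 down, glucocorticoid-responsive genes 1 up and 2 down of 9, and genes of cholesterol and fatty acid synthesis 1 of 10 in each direction. Of 11 glycolysis genes 2 went up and 1 went down. Leaving out 1 library gave 0 to 4 for each of these counts of 3 or fewer, and 2 of the p53 targets down without replicate 4 of the 3-week MCT lungs. Of the cytokines, 1 went up without replicate 4 of the 2-week or of the 3-week MCT lungs. Among the glycolysis genes that went up, the identifier named Tpi1, after the triosephosphate isomerase of glycolysis, had at most 2.46 CPM in any lung, and copies of that gene could share its reads, so its change of 3.36 ± 0.73 (SE, adjusted p = 0.0094) is uncertain.

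Week 1 values place the trajectories. The mitosis sum was 3426 to 4599 CPM in 1-week MCT lungs, above the 2-week MCT lungs (1832 to 2015 CPM) and the 3-week MCT lungs (1314 to 1423 CPM). In 1-week PBS lungs it was 761 to 1554.5 CPM. The pan-endothelial sum was 10253 to 12689 CPM in 1-week MCT lungs, 8515 to 9794 CPM in 2-week MCT lungs and 5093 to 5828 CPM in 3-week MCT lungs, with no overlap between weeks. The 1-week PBS lungs had 7737 to 19498 CPM, a range that spans the 1-week MCT lungs. The interferon-stimulated sum of PBS lungs was 2302 to 4171 CPM at week 1, 2776 to 3175 CPM at week 2 and 3157 to 8552 CPM at week 3, so the 1-week and 3-week PBS lungs overlapped.

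ENSRNOG00000045599 had the most negative change of the called genes with a mean of at least 5 CPM in a group, -8.70 ± 2.31 (SE, adjusted p = 0.0196, edgeR's quasi-likelihood test). It reached that mean only in 3-week PBS lungs, and there through replicate 2 alone. It had 1.43, 1.74, 2.55 and 0 CPM in 3-week MCT lungs, against 0.0698, 75.2, 2.22 and 0.0322 CPM in 3-week PBS lungs. It had 3.53, 7.66, 1.23 and 3.34 CPM in 2-week MCT lungs, against 0.0332, 0.132, 0.0322 and 0.304 CPM in 2-week PBS lungs, with no overlap. Its fit without single libraries was not run.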
